A study of Mus musculus with 4 samples.

Results

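Chemokines are small secreted proteins that guide the movement of leukocytes and other cells, and their receptors are G protein-coupled receptors of the cell surface. CC and CXC ligands, named for the spacing of their first cysteines, bind mainly CCR and CXCR receptors, while atypical receptors of the Ackr family take up ligands without signalling through G proteins. Many inflammatory chemokine genes are switched on by NF-kB, and some, such as Cxcl10, also by interferons. The family is described here in 4 RNA-seq libraries of cultured mouse cells that the labels call female germ line stem cells from ovary. Members were all rows of the deposited table whose symbol begins with Ccl, Cxcl, Xcl, Cx3cl, Ccr, Cxcr, Xcr, Cx3cr or Ackr followed by a number. This gave 62 of 55359 genes, with 39 ligand genes, 19 receptor genes and 4 genes of atypical receptors, after 1 pseudogene, Ccl19-ps1, was left out.

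The series compared cells given celastrol, a plant triterpenoid, with control cells after 12 h, and its title asks how STING and NLRP3 contribute to the pyroptosis caused by the compound. The labels give all libraries the same cell, tissue and medium, which held serum, LIF, GDNF, bFGF and EGF, and do not say which library received celastrol or what makes the libraries separate samples. The libraries are therefore named 01, 02, 21 and 22 after their titles, values are always given in that order, and no treatment comparison or replicate error exists. Total counts were 12339636, 13039541, 12388380 and 12850347. FPKM is the count scaled to exon length and to the total count of the library, and its 95% intervals are exact Poisson intervals of the count, which cover counting error only.

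The labelled cell type was checked against markers. A gene is called detected when each of the 4 libraries has at least 1 FPKM. Of 13 germ cell markers, 2 were detected and the other 11 stayed below that level everywhere, beside 11107 detected of all 55359 genes. Ddx4, a germ cell RNA helicase gene, had 0, 2, 0 and 0 counts. Tex14 (5.08 FPKM, mean of the libraries) and Piwil2 (2.07 FPKM) were the detected ones. All 5 general blood cell markers were detected, led by Coro1a at 113.9, 109.4, 131.2 and 133.3 FPKM. The label was thus not borne out by most of its markers, and the cells are called by their label here only for identification.

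The RNA of chemokine ligands was dominated by 3 genes. Ccl2, Ccl7 and Cxcl1 together held 82.05%, 83.42%, 77.34% and 77.45% of the summed FPKM of the 39 ligand genes. Of the 62 members, 9 were detected and 48 were below 1 FPKM throughout, among them 21 without a single count. Over all 55359 genes of the table, 11107 were detected, 42457 were below 1 FPKM throughout and 31230 had no count. Member genes received 2740, 2818, 3368 and 3494 counts, which is 0.0222%, 0.0216%, 0.0272% and 0.0272% of each library, with Wilson 95% intervals of 0.0214% to 0.0231%, 0.0208% to 0.0224%, 0.0263% to 0.0281% and 0.0263% to 0.0281%. The summed ligand FPKM was 109, 107.3, 136.4 and 131.7, so it was higher in libraries 21 and 22 than in 01 and 02, while the summed receptor FPKM, atypical receptors included, was 24.33, 21.96, 20.57 and 21.94. In bulk RNA, fewer cells of a type and less RNA per cell cannot be told apart.

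Ccl2, which encodes the monocyte attractant MCP-1, had the highest mean of the family. It had 504, 485, 655 and 680 counts, or 35.89, 32.68, 46.46 and 46.5 FPKM (ENSMUSG00000035385, chromosome 11, 81926397 to 81928279, plus strand; the sources used here do not name the genome build of the coordinates). The intervals of libraries 01 (32.83 to 39.17 FPKM) and 02 (29.84 to 35.73) overlapped each other and lay below those of 21 (42.97 to 50.16) and 22 (43.07 to 50.13). Ccl7, the gene of MCP-3, another ligand of CCR2, starts 8259 bases past the end of Ccl2 on the same strand. It had 363, 413, 239 and 222 counts, or 36.73, 39.54, 24.09 and 21.57 FPKM (ENSMUSG00000035373). Libraries 01 and 02 were the high ones for Ccl7, and its intervals of 33.04 to 40.71 and 35.82 to 43.55 FPKM there did not meet those of 21.13 to 27.34 and 18.82 to 24.6 FPKM in libraries 21 and 22.

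These neighbours therefore had opposite orders over the libraries. Ccl7 held 41.87%, 45.99%, 26.73% and 24.61% of the counts of the pair, with Wilson 95% intervals of 38.63% to 45.18%, 42.76% to 49.26%, 23.94% to 29.73% and 21.91% to 27.53%. In libraries 01 and 02 the FPKM intervals of both genes were close, with overlap in library 01 and, in library 02, Ccl7 just above Ccl2 (35.82 against 35.73 FPKM at the nearest ends). In libraries 21 and 22 Ccl2 was the higher gene and the intervals were far apart. This share compares 2 genes inside each library, so a scaling of the library does not alter it.

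**Figure D1:**
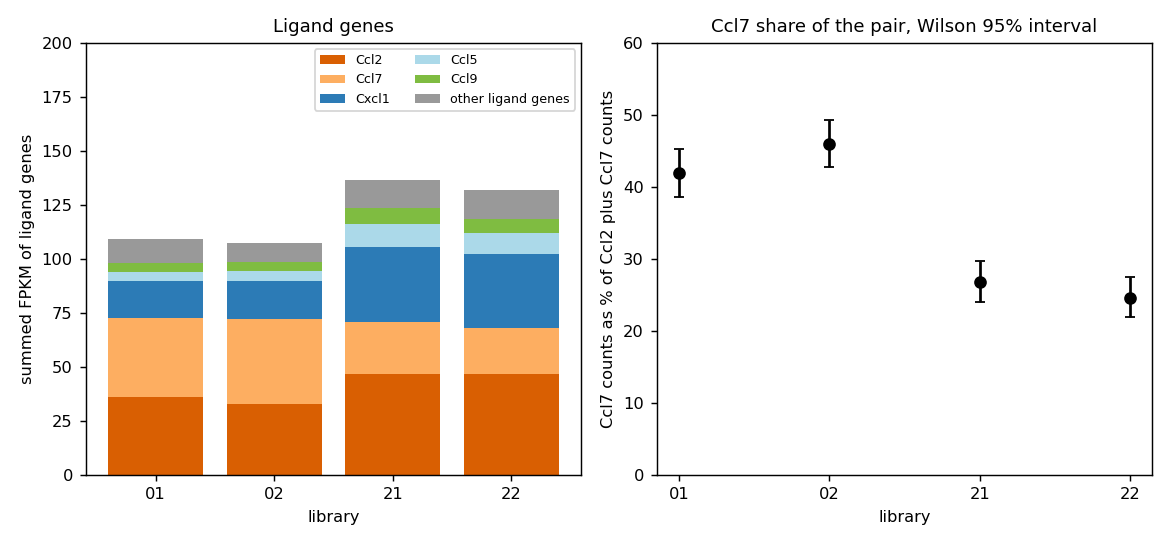
Left, bars show the summed FPKM of the ligand genes in each library, split by gene; right, points show Ccl7 counts as a percent of Ccl2 plus Ccl7 counts with Wilson 95% intervals. The blue Cxcl1 section is larger in libraries 21 and 22, where the Ccl7 share of the pair is 26.73% and 24.61% against 41.87% and 45.99% in libraries 01 and 02.

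Cxcl1, which encodes the neutrophil attractant KC, was the leading CXC ligand gene. It had 390, 422, 812 and 818 counts, or 16.86, 17.26, 34.96 and 33.95 FPKM (ENSMUSG00000029380, chromosome 5, 91039100 to 91040974, plus strand). Libraries 21 and 22 were high with intervals of 32.59 to 37.45 and 31.66 to 36.36 FPKM, against 15.22 to 18.62 and 15.65 to 18.99 FPKM in 01 and 02, and its log2 range of 1.01 corresponded to a 2.07-fold span from lowest to highest FPKM. The log2 range is the difference between the extreme libraries in log2(FPKM + 1), has no direction, and understates the span of low genes. Its close relatives Cxcl2 and Cxcl3, which encode the CXCR2 ligands MIP-2 and DCIP-1, were under 1 FPKM, with 12, 17, 7 and 5 counts of Cxcl2 and 13, 18, 41 and 15 counts of Cxcl3. Library 21 alone was high for Cxcl3 and its interval of 0.679 to 1.284 FPKM lay above those of the other 3 libraries, whereas Cxcl2 had its highest counts in 01 and 02, with overlapping intervals. Cxcl1 held 93.98%, 92.34%, 94.42% and 97.61% of the counts of these 3 genes. Cxcl5, another CXCR2 ligand gene, had 0, 1, 5 and 11 counts, and its intervals in 01 (0 to 0.1605 FPKM) and 22 (0.2294 to 0.8221 FPKM) did not meet.

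Further CC ligand genes stood at lower levels. Ccl5, the gene of RANTES, which draws T cells and monocytes, had 54, 62, 126 and 120 counts, or 4.56, 4.95, 10.59 and 9.73 FPKM (ENSMUSG00000035042, chromosome 11, 83416604 to 83421344, minus strand). Its log2 range of 1.06 was the widest among members with a mean of at least 1 FPKM, and the 95% intervals of libraries 01 (3.424 to 5.948 FPKM) and 02 (3.797 to 6.349) lay below those of 21 (8.826 to 12.61) and 22 (8.065 to 11.63). Ccl9, a myeloid CC ligand gene of rodents that lies next to Ccl5 among the members, had 149, 157, 275 and 252 counts, or 3.97, 3.95, 7.29 and 6.44 FPKM. Libraries 21 and 22 were again the high ones and their intervals, from 5.67 FPKM upward, did not meet those of 01 and 02, which ended at 4.656 FPKM or lower. Ccl25, which encodes a ligand that draws cells to thymus and gut, was nearly level at 1.39, 1.53, 1.59 and 1.52 FPKM, with overlapping intervals throughout. Its first bases overlap the span of Elavl1 on the opposite strand, a gene with 1490 to 1770 counts, and the library protocol mentions no strand selection, so reads of the overlap cannot be told apart. Ccl17, a ligand gene for cells with CCR4, had 14, 8, 14 and 6 counts and 2.21, 1.19, 2.2 and 0.91 FPKM, and at this depth no difference between libraries was detectable.

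Among other CXC ligands, the interferon-inducible gene Cxcl10 was at 0.94, 0.95, 2.44 and 2.63 FPKM from 26, 28, 68 and 76 counts. The values of 21 and 22, with intervals starting at 1.893 and 2.069 FPKM, stood apart from those of 01 and 02, which ended at 1.371 and 1.378 FPKM. Cxcl9 and Cxcl11, the other ligand genes of the same receptor CXCR3 and its neighbours on chromosome 5, had at most 4 and 1 counts in a library. Cxcl16, the gene of a membrane-bound ligand that also acts as a scavenger receptor, was at 0.99, 0.79, 1.9 and 2.37 FPKM from 37, 31, 71 and 92 counts, with the same libraries high. It is 85.8% unique in 100-base stretches of its GENCODE M21 transcripts and overlaps Zmynd15, which had 2, 3, 2 and 7 counts. Cxcl12, the stem cell niche ligand of CXCR4, was lower at 0.63, 0.8, 0.52 and 0.9 FPKM from 64, 85, 53 and 95 counts, with library 22 highest and 21 lowest and separate intervals between them. Cx3cl1, the gene of fractalkine, a ligand tethered to the membrane, was at 1.05, 1.29, 1.27 and 1.62 FPKM from 51, 66, 62 and 82 counts, with overlapping intervals.

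**Figure D2:**
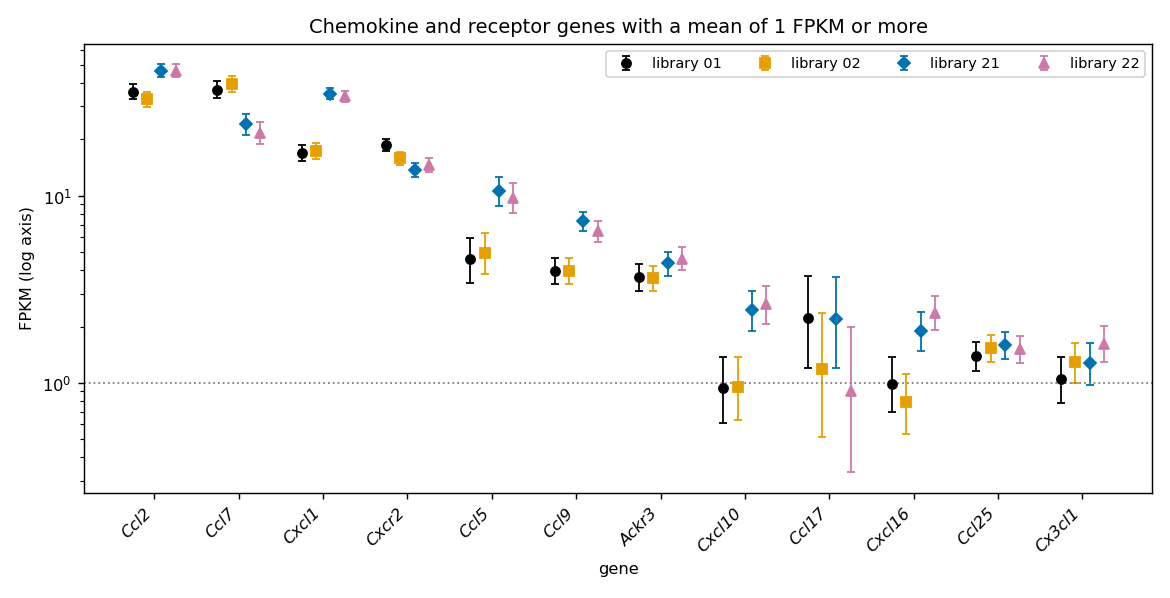
Points show the FPKM of each of the 12 genes with a mean of at least 1 FPKM in each library on a log axis, with exact Poisson 95% intervals, and the dotted line marks 1 FPKM. Ccl2, Cxcl1, Ccl5, Ccl9, Cxcl10 and Cxcl16 sit higher in libraries 21 and 22, and Ccl7 sits lower there, from 36.73 and 39.54 to 24.09 and 21.57 FPKM.

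Members next to each other on a chromosome differed widely in level. On chromosome 11, which holds 14 members, Ccl2 and Ccl7 had means of 40.38 and 30.48 FPKM, while Ccl11, the gene of eotaxin, starts 10298 bases past the end of Ccl7 and had a single count, in library 21. Ccl12, a mouse ligand gene for CCR2, had 10, 0, 3 and 2 counts, and only its interval in library 01 (0.7237 to 2.775 FPKM) lay above that of library 02 (0 to 0.5268 FPKM). Ccl8 (16 counts over the 4 libraries) and Ccl1 (1 count) complete that cluster. In the second cluster Ccl5 and Ccl9 were followed by Ccl6, Ccl3 and Ccl4, with 5, 8 and 8 counts over the 4 libraries, although Ccl3 and Ccl4, which encode MIP-1 alpha and beta, are well known products of activated leukocytes. All 8 counts of Ccl4 were in libraries 21 and 22, but the intervals of its lowest and highest library overlapped. On chromosome 5 Cxcl1 had a mean of 25.76 FPKM and Cxcl2, which starts 10756 bases past its end, had 0.39 FPKM. Chromosome 9 also holds 14 members, all of them receptor or atypical receptor genes, and none reached a mean of 1 FPKM.

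**Figure D3:**
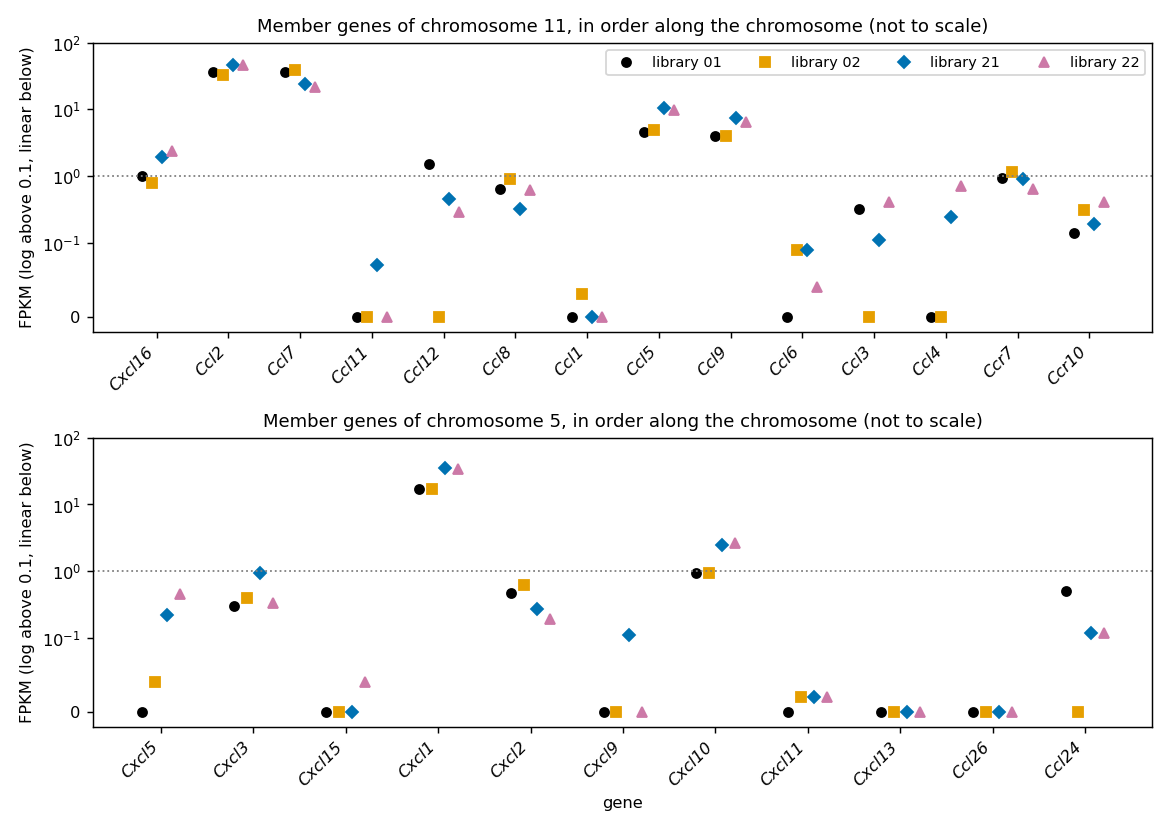
Points show FPKM in each library for member genes of chromosome 11 (top) and chromosome 5 (bottom), in order along the chromosome but not to scale, on an axis that is linear below 0.1 and logarithmic above. Ccl7, with a mean of 30.48 FPKM, stands next to Ccl11, which had a single count.

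Promoters are shown for Cxcl1, Cxcl10, Ccl9 and Cxcr2, to let their sequence be read beside the values. Among members with a mean of at least 1 FPKM and a RefSeq entry, these are the ones with an NF-kB match. The marked NF-kB letters in every printed promoter thus follow from this choice. RefSeq entries (GRCm38.p6, 250 bases before to 50 after a start) were found for 8 of the 12 members with a mean of at least 1 FPKM. Capitals mark matches, on either strand, to an NF-kB motif (GGG and CC with any 5 bases between), an interferon response motif (GAAA and GAAA with any 2 bases between), an AP-1 motif (TGANTCA) and a TATA motif (TATAAA). Matches to one motif may overlap.
Cxcl1, chr5:90890995-90891294, plus strand: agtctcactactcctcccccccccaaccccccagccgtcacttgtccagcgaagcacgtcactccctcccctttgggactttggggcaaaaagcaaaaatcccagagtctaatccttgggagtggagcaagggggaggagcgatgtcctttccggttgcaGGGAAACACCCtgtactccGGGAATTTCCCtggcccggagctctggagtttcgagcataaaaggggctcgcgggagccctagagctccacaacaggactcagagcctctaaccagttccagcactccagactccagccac
Cxcl10, chr5:92348840-92349139, minus strand: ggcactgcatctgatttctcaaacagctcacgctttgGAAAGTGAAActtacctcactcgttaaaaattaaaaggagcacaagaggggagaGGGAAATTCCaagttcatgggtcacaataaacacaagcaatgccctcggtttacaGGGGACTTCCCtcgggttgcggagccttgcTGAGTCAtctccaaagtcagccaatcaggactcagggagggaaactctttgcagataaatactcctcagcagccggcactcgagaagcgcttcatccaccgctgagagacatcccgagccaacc
Ccl9, chr11:83578587-83578886, minus strand: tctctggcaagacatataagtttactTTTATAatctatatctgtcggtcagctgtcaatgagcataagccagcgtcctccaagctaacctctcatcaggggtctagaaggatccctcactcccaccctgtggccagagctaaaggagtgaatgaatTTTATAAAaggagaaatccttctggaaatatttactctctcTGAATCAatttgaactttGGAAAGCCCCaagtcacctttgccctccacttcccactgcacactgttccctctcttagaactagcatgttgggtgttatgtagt
Cxcr2, chr1:74153744-74154043, plus strand: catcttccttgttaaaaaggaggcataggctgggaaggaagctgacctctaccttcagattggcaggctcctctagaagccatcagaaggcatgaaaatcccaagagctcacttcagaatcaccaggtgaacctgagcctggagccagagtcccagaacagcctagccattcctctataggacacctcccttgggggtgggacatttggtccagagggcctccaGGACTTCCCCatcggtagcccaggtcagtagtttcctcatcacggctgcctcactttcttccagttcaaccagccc

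The Cxcl1 promoter held 4 NF-kB matches, in 2 overlapping pairs of opposite strand that begin at -90 and -71 relative to the start. The Cxcl10 promoter held 4 NF-kB matches, 1 interferon response match at -213 and 1 AP-1 match at -74. Ccl9 had 1 NF-kB, 1 AP-1 and 3 TATA matches, and Cxcr2 had 1 NF-kB match. The entries of Ackr3, Ccl17, Ccl25 and Cx3cl1, which are not printed, held no NF-kB match. Ackr3, Ccl25 and Cx3cl1 had a TATA match, and Ccl17 matched none of the motifs. The NF-kB motif was found in 4 of the 8 genes with an entry and in 50.8% of all 32851 RefSeq promoters of the same length, so its presence did not mark these genes. The interferon response motif was rarer, in 3.4% of all promoters and in 1 of the 8 genes. The AP-1 motif was in 2 of the 8 genes and 7.8% of all promoters, and the TATA motif was in 4 of the 8 and 13.6%. A gene counts if any of its entries matched, whereas the background counts single promoters. Ccl25 had an entry with a TATA match and an entry without. A match is a description of letters and does not show that a factor binds.

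Among the receptor genes, Cxcr2 was the only one with a mean of at least 1 FPKM. CXCR2 is the receptor of Cxcl1 and its relatives and is best known from neutrophils. Cxcr2 had 704, 628, 516 and 570 counts, or 18.72, 15.8, 13.67 and 14.55 FPKM (ENSMUSG00000026180, chromosome 1, 74193148 to 74200405, plus strand), and it held 76.94%, 71.95%, 66.46% and 66.32% of the summed receptor FPKM. Library 01 was the highest, with an interval of 17.36 to 20.15 FPKM that lay above those of the other 3, and library 21 was the lowest, at 12.51 to 14.9 FPKM. Its interval in library 02 (14.59 to 17.09 FPKM) overlapped those of 21 and 22. Its neighbour Cxcr1, which encodes a related receptor, had no count.

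The other receptor genes were at or near 0. Ccr7, which steers cells into lymph nodes, was highest at 0.94, 1.16, 0.9 and 0.63 FPKM from 23, 30, 22 and 16 counts with overlapping intervals. Ccr4 had 10, 9, 15 and 8 counts, Ccr8 had 4, 2, 6 and 13, Ccr1 had 0, 10, 5 and 2 with separate intervals of libraries 01 and 02, and Ccr10, Cxcr4, Cxcr5, Cxcr6, Ccr9 and Cx3cr1 had at most 9 counts in any library. The rows of Ccr9, Ccr10, Cxcr5, Cxcr6 and Cx3cr1 overlap other genes, so their few counts are uncertain. Cxcr4, the receptor of Cxcl12 in many stem and blood cells, had 2, 4, 2 and 5 counts. No count was found for Ccr2, Ccr3, Ccr6, Ccr1l1, Cxcr1, Cxcr3 and Xcr1. Of the atypical receptors, Ackr3, which takes up Cxcl12, was at 3.66, 3.62, 4.34 and 4.6 FPKM from 151, 158, 180 and 198 counts, with overlapping intervals. Ackr4, a scavenger of CCR7 and CCR9 ligands, had 1, 5, 4 and 10 counts and overlaps Acad11, Ackr2 had 3, 4, 1 and 7 counts, and Ackr1 had none.

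Set side by side, most ligand genes had little or no RNA of a known receptor in the same libraries. The 10 ligand genes with a mean of at least 1 FPKM were set against 9 of their known receptors, of which 1, Cxcr2, was detected, 3 had no count and the other 5 had at most 15 counts in any library. Ccr2, the receptor of Ccl2 and Ccl7, had none, and 3 counts, the floor used for a zero, would be 0.036 FPKM at most. Among the pairs compared, Cxcl1 and Cxcr2 was the one with both genes at 1 FPKM or above throughout, with Cxcl1 at 16.86, 17.26, 34.96 and 33.95 FPKM and Cxcr2 at 18.72, 15.8, 13.67 and 14.55 FPKM. In libraries 01 and 02 their intervals overlapped, and in libraries 21 and 22 Cxcl1 was above Cxcr2.

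**Figure D4:**
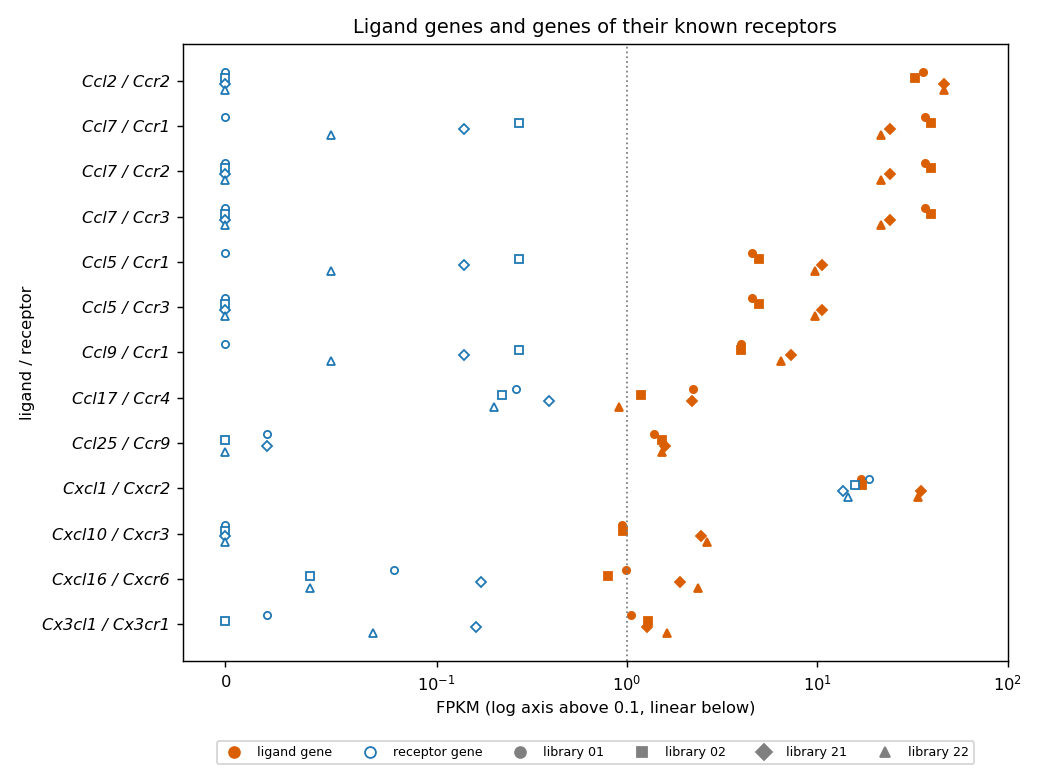
Each row pairs a ligand gene (filled) with the gene of a known receptor (open) and shows FPKM in each library on an axis that is linear below 0.1 and logarithmic above. Among the pairs drawn, only the row of Cxcl1 and Cxcr2 has all filled and open points right of the dotted 1 FPKM line.

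The members not yet described had few counts or none. No count was found for the ligand genes Ccl19, Ccl20, Ccl21a, Ccl21b, Ccl21d, Ccl22, Ccl26, Ccl27b, Ccl28, Cxcl13, Cxcl14 and Xcl1, several of which guide lymphocytes in lymphoid tissue. The floor of 3 counts in a library corresponds to 0.036 FPKM for Ccr2 and to 0.862 FPKM for the short gene Ccl26, whose level is thus weakly bounded. Ccl21b, Ccl21d and Ccl27b share nearly all of their sequence with other genes, with 0%, 3.1% and 2.1% of their 100-base stretches unique, and their zeros are uncertain, as are those of Ccl21a (49.7%) and Ccl19 (60.7%). Ccl27a had 3, 4, 4 and 11 counts, is 73.5% unique and overlaps Il11ra1. Ccl24, the gene of a second eotaxin, had 8, 0, 2 and 2 counts, and Cxcl15 and Cxcl17 had 1 count each over the 4 libraries.

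The spread of the members over the libraries was wide. Among the 12 members with a mean of at least 1 FPKM the median log2 range was 0.75, beside 0.28 over all 11874 genes with such a mean. A log2 range over 0.5 was reached by 7 of the 12, while 17.3% of all these genes did so, and the 7 were all ligand genes: Ccl5, Cxcl1, Cxcl16, Cxcl10, Ccl7, Ccl17 and Ccl9. Ccl17 is among them with 6 to 14 counts and overlapping intervals, and Ccl2 is just below the threshold at 0.496. The 95% intervals of the lowest and the highest library did not overlap for 8 of the 12, and the same held for 56.8% of all these genes. These counts describe the libraries and carry no test, and a member passed the filter on the mean partly through the libraries where it was high.

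**Figure D5:**
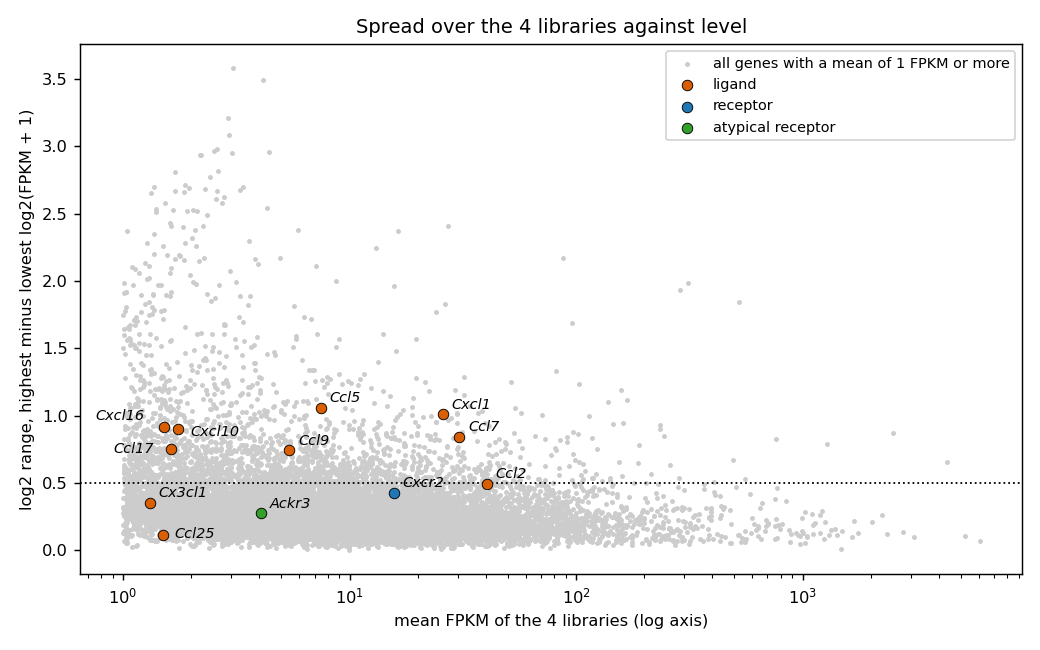
Each grey point is a gene with a mean of at least 1 FPKM, with its mean FPKM on a log axis and its log2 range over the 4 libraries, and coloured points are members. Of the 12 members, 7 lie above the dotted line at 0.5, and Ccl25 lies lowest at 0.12.

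Pairs of libraries were also compared gene by gene. Between 01 and 02 the intervals were separate for 1 of the 12 members, Cxcr2, beside 10.6% of all genes with a mean of at least 1 FPKM, and between 21 and 22 for 0 of the 12, beside 7.2%, so the members were near the background in both of these pairs. Between 01 and 21 they were separate for 8 of the 12, beside 32.6%, and between 01 and 22 for 8, beside 33.7%. Between 02 and 21 the count was 7, beside 34.2%, and between 02 and 22 it was 7, beside 34.9%. In all 4 of these pairs Ccl2, Ccl5, Ccl9, Cxcl1, Cxcl10 and Cxcl16 were higher in 21 or 22 and Ccl7 was lower, and Cxcr2 was lower in 21 and 22 than in 01.

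Markers of other cells moved over the same libraries. Over all 55359 genes, 11107 were detected, and the counts of detected markers below stand beside that. Of 11 macrophage markers, 3 were detected, and the summed level of the list was 266.1, 268.7, 121.4 and 120.8 FPKM. Nearly all of it came from Adgre1, Cd68 and Fcgr1, while Csf1r had at most 11 counts in a library and C1qa and C1qb had none. Of 13 mast cell markers, 5 were detected, with sums of 735.7, 714.9, 621.9 and 644.4 FPKM, led by Cpa3 at 333.4, 324.8, 229.2 and 246.7 FPKM. Kit, the stem cell factor receptor gene and the mast cell marker with the widest log2 range (0.76), was high in the other libraries, at 58.9, 64.6, 100.7 and 100.2 FPKM. The mast cell markers Fcer1a, Tpsb2, Mcpt4 and Mrgprb2 had no count. Of 10 fibroblast markers, 8 were detected, with sums of 544.4, 561.8, 500.6 and 511 FPKM. Most of it came from Vim at 340.5, 335, 295.7 and 306.3 FPKM and Fn1 at 118.5, 139.9, 125.5 and 123.4 FPKM. Vim was lower in 21 and 22, whereas Fn1 was lowest in 01. The sums of these 3 lists were lower in 21 and 22 than in 01 and 02, but some markers were higher there. Among them were Kit, the macrophage marker Lyz2 (0.62, 0.47, 1.23 and 1.06 FPKM) and the fibroblast marker Dcn (20.27, 20.01, 23.06 and 24.11 FPKM). Lyz2 had 10, 8, 20 and 18 counts, and the intervals of its lowest and highest library overlapped. Hdc, Cx3cr1 and Pdgfrb, all below 1 FPKM, were also higher in 21 and 22. The part of these cell types in the levels of the members was not tested. Cx3cr1, a member, also counts as a macrophage marker, and Srgn stands in both the mast cell and the proteoglycan list. The general blood cell markers summed to 323.3, 325.9, 344 and 349.3 FPKM. T and B cell, endothelial and granulosa markers summed to at most 0.33, 0.54 and 0.56 FPKM in any library, with Cd8a, Ms4a1, Emcn, Foxl2, Fshr and Cyp19a1 at 0 counts.

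Some genes of chemokine biology carry names that the member rule does not take. Ppbp, which encodes the CXCR2 ligand CXCL7, had 224, 177, 266 and 364 counts, or 16.76, 12.53, 19.83 and 26.16 FPKM, a log2 range of 1.00. Library 22 was highest and 02 lowest, an order not seen in Cxcl1. Pf4, which encodes CXCL4 of platelets, was at 5.17, 2.02, 3.25 and 2.91 FPKM with library 01 highest. Mif, a cytokine gene whose product can bind CXCR2 and CXCR4, was level at 487.8, 483.4, 471.4 and 490.4 FPKM, and Cd74, which encodes the surface receptor of MIF, was at 1.21, 1.37, 3.08 and 2.83 FPKM. Of the 11 such genes 7 were detected, with the others being Ccrl2, Cklf and Gpr35 at means of 1.78 to 2.30 FPKM, and 4 under 1 FPKM, Cmklr1, Rarres2, Dpp4 and Pitpnm3.

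RNA was found for most genes of a chosen list of signalling genes downstream of chemokine receptors. The list is a part of that machinery and was chosen with earlier results of these data known. Its share of detected genes therefore does not show how complete the machinery was. Of the 42 genes listed, 40 were detected, beside 11107 of all 55359 genes. The 41 with a mean of at least 1 FPKM had a median log2 range of 0.21, beside 0.28 over all such genes, and 4 of them had a range over 0.5, beside 17.3% of all such genes. The 5 with the highest means were the G protein subunit gene Gnai2 (172.6 FPKM), the small GTPase genes Rap1b (162.2) and Cdc42 (130.8), the kinase gene Pik3cd (117.6) and the G protein subunit gene Gnb1 (113.8). The widest range, 1.34, belonged to Rgs16, whose product shortens G protein signals, at 8.94, 10.07, 3.38 and 4.03 FPKM. Pik3cd followed at 149.1, 149.8, 87.92 and 83.72 FPKM and Was, an actin regulator gene of blood cells, at 22.87, 22.32, 33.66 and 34.78 FPKM. Libraries 21 and 22 were low for Rgs16 and Pik3cd and high for Was.

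Of 26 genes of cytokines, cytokine receptors and Toll-like receptors known to induce chemokines, 19 were detected, beside 11107 of all 55359 genes. Their median log2 range, for a mean of at least 1 FPKM, was 0.35, beside 0.28 over all such genes. Tnf, a main inducer of Ccl2 and Cxcl1, was at 2.77, 2.25, 1.28 and 1.8 FPKM from 56, 48, 26 and 38 counts, highest in 01 and lowest in 21. Il1a was at 3.28, 4.74, 3.35 and 3.59 FPKM from 80, 122, 82 and 91 counts. Il1b had 1 count, in library 21, Ifnb1 had 1, in library 22, and Ifng and Il17a had none. Other cytokine genes of the list were higher, with Il33 at 23.25, 24.18, 29 and 28.2 FPKM. Il4 was at 18.56, 19.75, 13.82 and 15.41 FPKM and Il6 at 11.45, 11.37, 8.28 and 9.29 FPKM. Il17ra (16.03, 15.33, 21.69 and 21.31 FPKM) and Tlr2 (0.3, 0.36, 0.78 and 1.16 FPKM) were higher in 21 and 22. The interleukin-1 receptor gene Il1r1 was at 4.05, 4.19, 4.3 and 5.15 FPKM and the interferon gamma receptor gene Ifngr1 at 12.15, 9.97, 14.18 and 12.63 FPKM. Another list took 15 genes of proteoglycans that hold chemokines at the cell surface or in granules, or of enzymes that build their chains. Of these, 13 were detected, with a median log2 range of 0.24, beside the same all-gene values. Srgn, the granule proteoglycan serglycin, was highest at 126.7, 122.2, 123.7 and 122.8 FPKM.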

How the data were processed

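The deposited columns headed only by a library title were taken as counts per gene, not normalised. The FPKM values are the authors' own, as deposited, and equal the count scaled to exonic size and the table's total count, within 0.05% above 10 FPKM. FastQC, HISAT2 and DESeq2 are named without version or role in the submitters' processing notes. Counting tool, genome build and annotation: not given in the sources used here. Members, lists and processing alternatives were chosen with earlier results of these data known. All members are counted, and 1 withheld item is not reported by name here. Members are named by level, those with a mean of 1 FPKM or more with every value, those below it with 10 or more counts in a library with their counts. In the signalling list the 5 highest and the 3 widest are named, and genes named from the other lists were chosen after their values were seen. Since no library has a group, no test between conditions was run. Poisson, Wilson and range calculations used Python 3.11.15, NumPy 2.4.6, SciPy 1.17.1 and pandas 2.3.3. The range and interval calls were tried on simulated Poisson counts with a change placed in a single library. That simulation held no variation between libraries beyond counting error, and its changed genes were well above the floor. It therefore does not cover a split between pairs of libraries or members with few counts. Floors are 3 counts per library. Motif positions count from the RefSeq start. Promoters were matched by symbol, and their GRCm38.p6 coordinates are not on the same footing as those of the deposited table.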

Additional observations from a re-analysis of the deposited data

How the results depend on the processing

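Of 45 alternative values, 40 stayed within 1.5 times of the reported value and 5 did not. The count of members detected in every library, 9, became 14 at 0.5 FPKM and 14 when 10 counts in every library were asked for, because both settings let low members in. The count with a log2 range over 0.5, 7, became 14 with no filter on low values, where 41 members have a range, and 4 with a filter at a mean of 2 FPKM, where 7 do. The median log2 range of 0.75 became 0.34 with no filter. The members added then all have means below 1 FPKM, where the log2 range understates the span, and other causes were not tested. Median-of-ratios size factors, a common sum of FPKM, 99% intervals and leaving out each library in turn moved no result by over 1.5 times, and size factors brought Ccl2 over the range threshold, to 8 members. Leaving out a library gave 9 to 10 detected members, 21 to 23 without a count and 7 to 8 with separate intervals. At 6 to 14 counts, no difference of Ccl17 between libraries was detectable. No paired analysis was possible because the labels form no groups.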

Other observations

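The values of several members formed separate clusters, libraries 01 and 02 in one and 21 and 22 in the other, which the labels do not explain. The split was not particular to the members. Of all genes with a mean of at least 1 FPKM, 32.6% to 34.9% had separate intervals in a pair across the clusters. Within them the share was 10.6% (01 and 02) and 7.2% (21 and 22). The share of all genes separate in every pair across the clusters was not computed. Per library, Cxcl1 was at 16.86, 17.26, 34.96 and 33.95 FPKM, Ccl5 at 4.56, 4.95, 10.59 and 9.73, Ccl9 at 3.97, 3.95, 7.29 and 6.44, Cxcl10 at 0.94, 0.95, 2.44 and 2.63, Cxcl16 at 0.99, 0.79, 1.9 and 2.37, Ccl2 at 35.89, 32.68, 46.46 and 46.5, and Ccl7 at 36.73, 39.54, 24.09 and 21.57 FPKM. Cd74 had the same clusters at 1.21, 1.37, 3.08 and 2.83 FPKM. Ackr3 had the same order at 3.66, 3.62, 4.34 and 4.6 FPKM, but its intervals overlapped. Ccl25 did not split this way, at 1.39, 1.53, 1.59 and 1.52 FPKM. No condition was assigned to either cluster.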
